A study of Saccharomyces cerevisiae with 12 samples.

Results

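RNA from 1 yeast line that had been passaged for 500 generations without the SUMO protease Ulp2 (line 6, 3 libraries) was compared with RNA from nascent ulp2Δ cells (3 libraries) of *Saccharomyces cerevisiae*. The comparison covered every named gene in the table that had enough counts, which was 6372 of 7108 named genes, and 736 had too few. Genes whose systematic names place them on chromosome I or XII (names starting YAL, YAR, YLL or YLR; 649 tested) were counted apart from the other 5723. All cells derived from strain MHY1379, in which the chromosomal ULP2 gene is deleted. Nascent ulp2Δ cells had lost a plasmid copy of ULP2 on FOA medium and, by the study's methods, were then given the empty plasmid YCplac33, and line 6 was grown onward from ulp2Δ cells by daily dilution into fresh YPD. WT, which is the same deletion strain with ULP2 on the plasmid, and a second evolved line, line 9, had 3 libraries each and were fitted in the same model. By the study's account, both evolved lines carried a mutation that changes the SUMO enzyme Uba2. In 1 of them Uba2 carried a further mutation, and the labels do not say which of these is line 6. Cultures were in exponential growth in YPD. Line 6 is a single line, so the errors below cover the spread among its libraries and not the spread among lines, and nothing in the labels says that the 3 libraries of a group came from separate cultures.

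SUMO is a small protein that is attached to lysines of other proteins by an E1 enzyme (Aos1 and Uba2) and the E2 enzyme Ubc9, and Ulp1 and Ulp2 are the proteases that take it off. Ulp2 trims chains of SUMO in the nucleus, and cells without it grow slowly and become aneuploid. A chromosome carried in an extra copy gives most of its genes a higher RNA level together. Budding yeast switches between building ribosomes during fast growth on glucose and respiring or storing carbohydrate when glucose is short, and the ribosomal protein genes, their assembly factors and the genes of mitochondria and glycogen are the classic readouts of that switch.

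The libraries held between 20467216 and 29258749 counts on named genes in these 6 samples. ULP2 had 0.44, 0.175 and 0.202 CPM (counts scaled to a common library size after TMM normalization) in the nascent libraries and 0.173, 0.111 and 0.184 in line 6, while WT averaged 386 CPM, so all 6 libraries carried the deletion that their labels give. URA3, the marker on the plasmid, had 138, 135 and 126 CPM in nascent cells and 118, 128 and 127 CPM in line 6, against a WT mean of 2145 CPM (nascent against WT, log2 -4.01, adjusted p = 1.45e-15). These counts therefore do not show that either group held the empty plasmid at the level of the WT plasmid when RNA was taken. HMRA1, which cannot be told apart from its copy at the mating-type locus, was read in all 6 libraries (199 to 338 CPM), which does not by itself settle the mating type.

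Calls required a difference of at least 2-fold in level and a p under 0.05 from edgeR's quasi-likelihood test, adjusted over all tested genes by the method of Benjamini and Hochberg. Over all tested genes 333 were higher in line 6 than in nascent cells (5.23% of those tested) and 803 were lower (12.6%), and these 2 shares are the background for every count below. Off chromosomes I and XII, 324 genes were higher and 586 lower, and the median log2 fold change was 0.07 (quartiles -0.42 and 0.46). On chromosomes I and XII, 9 were higher and 217 lower, with a median of -0.79 (quartiles -1.27 and -0.34). At the same adjusted p but any size of change, 2554 genes were higher and 2478 were lower, together 79% of those tested. Libraries of both groups were also apart for genes that were not called, such as RSA1 (log2 0.34) and COX12 (0.19). Separation of the libraries therefore marks out no gene by itself, and its share over all genes is not given here. Scaling by library totals, with no TMM factor, changed the split over all genes to 182 higher and 1191 lower, so that 13.3% of the called genes were higher in place of 29.3%, and moved the median of all genes from 0.00 to -0.25. TMM factors taken only from genes outside chromosomes I and XII and the translation lists gave 241 higher and 1004 lower, which is 19.4% higher, and a median of -0.13.

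**Figure D1:**
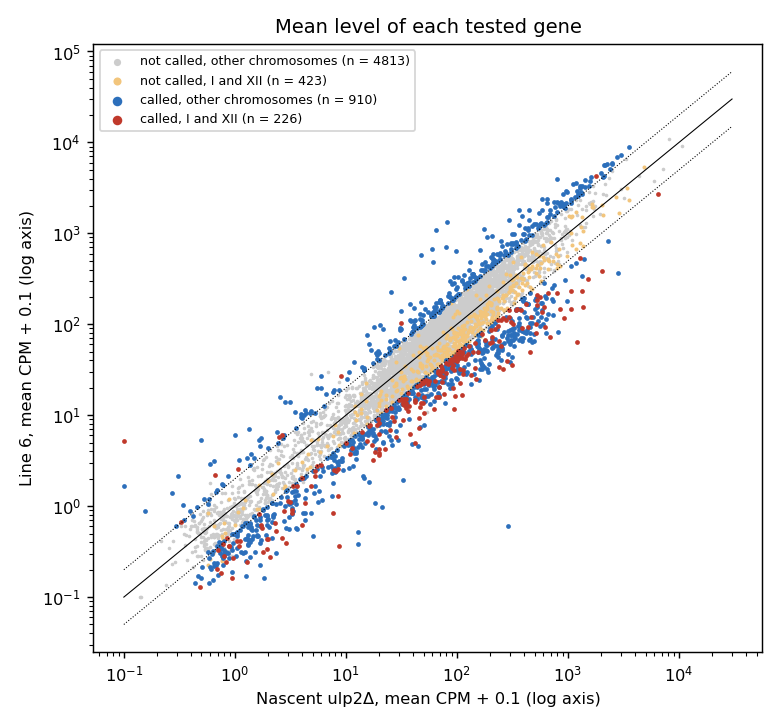
Mean level of each of the 6372 tested genes in nascent ulp2Δ cells (horizontal axis) and in line 6 (vertical axis), in CPM plus 0.1 on log axes, with lines at equal levels and at 2-fold differences. The 910 called genes off chromosomes I and XII lie on both sides of the diagonal, while 217 of the 226 called genes on I and XII lie below it.

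The largest rises off chromosomes I and XII belonged to mating. Haploid yeast of mating type a make a-factor pheromone, the receptor for the partner's α-factor and an agglutinin that sticks mating cells together, and in α cells the repressor α2 with Mcm1 holds these a-specific genes silent. All 7 tested a-specific genes rose in line 6, with a median log2 fold change of 3.27 (all genes: 0.00). MFA2, which encodes a-factor, had 64.6, 66.5 and 61.7 CPM in the nascent libraries and 1050, 1068 and 1184 CPM in line 6. The groups were far apart, and the rise was 17.1-fold (log2 4.10, standard error 0.05, adjusted p = 4.28e-17, edgeR). MFA1, the other a-factor gene, went from 87.7, 76.2 and 81.3 CPM to 1283, 1341 and 1369 CPM. The receptor gene STE2 had 80.6, 82.6 and 77.3 CPM in nascent cells and 716, 686 and 724 CPM in line 6, an 8.84-fold rise. BAR1, the protease that degrades α-factor, rose from 48.6, 49.1 and 45.4 CPM to 602, 564 and 582 CPM. In none of these genes did the libraries of the groups overlap, which the rule that named them required. STE6, the a-factor exporter, rose by 2.97 on the log2 scale (0.04), AGA2, the binding subunit of the a-agglutinin, by 3.27 (0.08), and ASG7, an inhibitor of signalling in the zygote, by 2.28 (0.06), with standard errors in parentheses. WT cells had 350 CPM of MFA2, 374 of MFA1, 189 of STE2 and 85.8 of BAR1 on average, levels between those of nascent cells and line 6.

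Promoters of mating genes are shown for the α2 site and the pheromone response element. Within 300 bases before the start codon, all 7 held CATGTAA (or TTACATG on the other strand), the core letters of the α2 site, against 3.93% of the 5988 protein-coding promoters searched in the RefSeq R64 reference (the sacCer3 assembly). For the pheromone response element TGAAACA (or TGTTTCA), to which Ste12 binds, the shares were 63.2% of 19 pheromone response genes and 7.21% of all promoters. The letters were matched as written, and a match is a description of the sequence and not a bound site. Over all tested genes, median log2 fold changes with and without a match were 0.13 and 0.02 (α2) and 0.14 and 0.01 (pheromone response element). Within the pheromone response list they were 1.13 and 1.09. The a-specific list is made of genes that α2 represses, so its matches are no separate evidence. Whether the elements bear on the changes was not tested. Capitals mark only the α2 letters in the MFA2 stretch and only the pheromone response element in the AGA1 stretch. The MFA2 stretch also holds TGAAACA, left in lower case. Stretches of 100 bases around the capitalized match nearest the start codon, 5′ to 3′ on the coding strand, are these, for MFA2 (chrXIV:352141-352240, plus strand) and AGA1 (chrXIV:703451-703550, plus strand).
MFA2: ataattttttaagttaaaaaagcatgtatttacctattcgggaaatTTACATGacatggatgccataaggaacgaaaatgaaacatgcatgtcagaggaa
AGA1: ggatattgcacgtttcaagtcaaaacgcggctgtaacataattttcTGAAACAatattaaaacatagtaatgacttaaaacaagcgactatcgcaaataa

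Genes of the pheromone response rose with the a-specific genes. Of 19 tested members, 11 were higher and 1 was lower, and the median was 1.09. AGA1, the anchor subunit of the agglutinin, had 60.3, 60.3 and 56.9 CPM in nascent cells and 681, 683 and 678 CPM in line 6 (log2 3.52, standard error 0.04, adjusted p = 4.28e-17). FAR1, which arrests the cell cycle in response to pheromone, had 17.3, 17.9 and 17.6 CPM in nascent cells and 95.1, 91.3 and 90.1 CPM in line 6. FUS1, needed for cell fusion, had 14.7, 16.5 and 15.4 CPM against 75.7, 76.9 and 76.4 CPM. The libraries of the groups lay well apart for all 3 genes, which the naming rule required of AGA1 and FAR1. Among the signalling components, GPA1, the Gα subunit, rose 3.61-fold and FUS3, the MAP kinase, 2.77-fold. STE12, the transcription factor of the pathway, had 63.1, 59.2 and 62.7 CPM in nascent cells and 63.4, 65.4 and 65.7 CPM in line 6 (log2 0.07, adjusted p = 0.286). The single member that fell was PRM3 (log2 -1.35), a nuclear envelope protein of karyogamy. TEC1, the partner of Ste12 in filamentous growth, lies outside the list and was picked after its values were seen, and it had 105, 104 and 99.6 CPM in nascent cells and 317, 324 and 352 CPM in line 6.

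Among the genes that α cells use, 4 were tested. STE3, the a-factor receptor, had 8.67, 9.48 and 8.92 CPM in nascent cells and 2.94, 4.01 and 2.17 CPM in line 6, a fall of 1.56 on the log2 scale. The α-factor genes MF(ALPHA)1 and MF(ALPHA)2 were below 2 CPM in all 6 libraries. SAG1, the α-agglutinin gene, was at 67.5, 59.7 and 54.5 CPM in nascent cells and 121, 119 and 113 CPM in line 6, and its log2 fold change of 0.96 fell short of 2-fold.

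**Figure D2:**
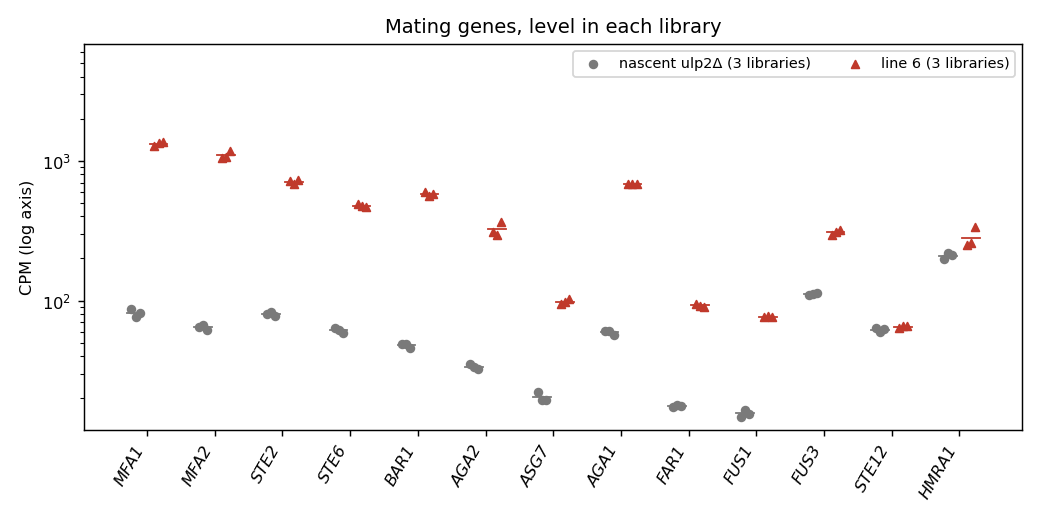
Level in each library, in CPM on a log axis, of the 7 a-specific genes, 5 pheromone response genes and HMRA1, with grey circles for nascent ulp2Δ, red triangles for line 6 and a bar at each group mean. STE12 and HMRA1 differ by less than 2-fold, and the other 11 genes lie at least 2-fold higher in line 6.

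Cytosolic ribosomal protein genes made up the largest block of falls. Of 56 tested small subunit protein genes 53 were lower and none was higher, with a median log2 fold change of -2.20, and of 81 large subunit protein genes 76 were lower and none was higher, with a median of -2.14. RPS1B (chromosome XIII from 146482 to 147249) had 613, 643 and 657 CPM in nascent cells and 80.4, 82.8 and 77.2 CPM in line 6. Its 7.95-fold fall (log2 -2.99, standard error 0.04, adjusted p = 4.28e-17) was the largest of the small subunit genes off chromosomes I and XII. RPL24A had 293, 327 and 313 CPM in nascent cells and 44.2, 43.9 and 42.4 CPM in line 6 (log2 -2.84). On chromosome XII, RPS31, which makes ubiquitin fused to a ribosomal protein, dropped from 1360, 1378 and 1354 CPM to 157, 153 and 157 CPM. RPL41A was the exception, with 173, 170 and 152 CPM in nascent cells and 155, 164 and 170 CPM in line 6, ranges that overlap. The others that missed the 2-fold threshold were RPS23A (-0.47), RPS30A (-0.95), RPS30B (-0.98), RPL15B (-0.49), RPL1A (-0.60), RPL4A (-0.86) and RPL9B (-0.86), given as log2 fold changes. Many of these genes exist as near-identical A and B copies, and how reads shared by the copies were divided is not given in the sources used here, so the family is firmer than any 1 copy. Against WT, the median of the small subunit genes was 0.52 in nascent cells and -1.58 in line 6, and that of the large subunit genes was 0.47 and -1.63.

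Genes that build ribosomes fell as well, by less. The small subunit processome, the particle that folds and cuts the first ribosomal RNA precursor, had 26 of 50 tested genes lower and none higher (median -1.02), and the pre-60S assembly factors had 30 of 57 lower and none higher (median -1.07). Off chromosomes I and XII, 19 of 43 processome genes (median -0.98) and 23 of 50 pre-60S genes (median -0.94) were lower. SNU13, a protein of the box C/D snoRNPs and of the processome, had 101, 97.4 and 99.5 CPM in nascent cells and 24.8, 24.7 and 25.5 CPM in line 6. HAS1, an RNA helicase of both subunits, had 62.0, 57.1 and 65.2 CPM against 14.1, 13.5 and 14.8 CPM. The separation of the groups was complete for both genes, as it was for some genes that were not called. RNA polymerase I and its initiation factors, which transcribe the ribosomal DNA, had 8 of 15 genes lower (median -1.06). Within that list the polymerase subunit genes RPA43 (-1.81), RPA34 (-1.54) and RPA135 (-1.25) fell, as did the initiation factor genes RRN5 (-1.22, on chromosome XII) and RRN11 (-1.08). The subunit gene RPA14 (-0.97) and the initiation factor genes RRN6 (0.19), RRN3 (0.08) and UAF30 (0.15) stayed within 2-fold. Translation initiation and elongation factors had 5 of 38 lower, a share of 13.2% beside the 12.6% of all genes. YEF3, the fungal elongation factor, which lies on chromosome XII, was the lowest of them at -2.28. The RNA genes named SNR, most of them small nucleolar RNAs that guide modification and cutting of ribosomal RNA, had 20 of 73 lower and 5 higher (median -0.63). They include the spliceosomal RNA genes SNR6 (-1.65, lower), SNR14 (0.74) and SNR19 (0.42), and without these 3 the counts were 19 lower and 5 higher of 70 (median -0.64). All 5 that were higher had a mean under 11 CPM in line 6. How RNA was selected for the libraries is not given in the sources used here, so values of such short RNAs are uncertain. Names of these RNA genes do not show their chromosome, and SNR30, which had 278, 258 and 257 CPM against 77.4, 79.4 and 91.1 CPM, lies on chromosome XII.

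Ribosome assembly promoters are shown because 2 short elements recur in them. PAC (GATGAG or CTCATC) was found in 90% of 50 processome promoters and 19.1% of all promoters, and the core of the RRPE element (AAAATTTT, its own reverse complement) in 78% and 9.42%. The letters ACCCNNACA (or TGTNNGGGT), the core of the site of Rap1, occurred in 19.8% of 81 large subunit protein promoters and in 3.12% of all. Within the lists, median log2 fold changes with and without a match were -1.02 and -1.17 (PAC), -1.02 and -1.03 (RRPE) and -2.07 and -2.15 (Rap1). Over all tested genes they were -0.22 and 0.07, -0.435 and 0.06, and -0.18 and 0.03, in that order. Whether the elements bear on the changes was not tested. Chosen as the lowest members with matches, off chromosomes I and XII, SNU13 (chrV:101703-101802, plus strand) holds a PAC match between 2 RRPE cores within the 100 bases, and RPL8A (chrVIII:36210-36309, minus strand) fell from 169, 168 and 168 CPM to 33.0, 29.2 and 34.3 CPM.
SNU13: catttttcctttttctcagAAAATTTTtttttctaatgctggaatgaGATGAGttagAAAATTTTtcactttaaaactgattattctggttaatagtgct
RPL8A: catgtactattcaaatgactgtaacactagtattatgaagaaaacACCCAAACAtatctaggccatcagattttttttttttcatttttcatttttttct

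Energy metabolism moved the other way. In the TCA cycle, 10 of 18 genes were higher and none lower (median 1.11). Of the nuclear genes for the respiratory chain, 14 of 26 were higher and none lower (median 1.02), and of those for the ATP synthase 6 of 17 were higher and none lower (median 0.94). Against WT, the medians of these lists were -0.91, -0.84 and -0.96 in nascent cells and 0.14, 0.15 and 0.03 in line 6. Called rises such as KGD1 (1.03), RIP1 (1.02) and ATP3 (1.05) lay just over 2-fold, so these counts depend on the scaling. FUM1, fumarase, had 791, 805 and 818 CPM in nascent cells and 2177, 2100 and 2111 CPM in line 6 (log2 1.40, standard error 0.04, adjusted p = 2.44e-13). CYB2, the cytochrome that oxidizes lactate, had 350, 360 and 370 CPM in nascent cells and 1866, 1834 and 1718 CPM in line 6, a 5.02-fold rise. DLD1, which oxidizes D-lactate, rose 4.11-fold and GUT2, the mitochondrial glycerol 3-phosphate dehydrogenase, 3.34-fold, so that the 3 top rises of the respiratory list were dehydrogenases that feed the chain. Subunits of the chain itself spanned from COX7 (0.02) and COX12 (0.19) to QCR2 (1.35). ACO1, aconitase, is on chromosome XII and had 1727, 1763 and 1881 CPM in nascent cells and 4423, 4281 and 3958 CPM in line 6, one of the 9 called rises on chromosomes I and XII. HAP4, the activator of respiratory genes, was looked up after the lists were seen and had 739, 746 and 811 CPM against 1931, 1988 and 1866 CPM.

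Genes that lie in mitochondrial DNA did not follow their nuclear partners. Of 8 tested, 3 were lower and none higher, with a median of -0.90. COX1 had 48.7, 49.7 and 49.3 CPM in nascent cells and 14.0, 15.0 and 16.7 CPM in line 6 (log2 -1.69, standard error 0.09), COX3 fell by 1.26 and COB by 1.12. COX1 overlaps several intron-encoded genes, so its value is uncertain. How RNA was selected for the libraries is not given, so the contrast of mitochondrial with nuclear RNA is uncertain as well. Nuclear genes for mitochondrial ribosomal proteins had a median of 0.60, and none of 70 reached 2-fold in either direction.

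Genes of storage carbohydrates were higher or uncalled. Of 15 genes of glycogen metabolism 9 were higher and none lower, with a median of 1.05. Rises such as PGM2 (1.03) and GLG2 (1.05) lay just over 2-fold, so the count depends on the scaling. GPH1, glycogen phosphorylase, had 642, 659 and 651 CPM in nascent cells and 2402, 2401 and 2267 CPM in line 6 (3.62-fold). GDB1, the debranching enzyme, had 578, 594 and 593 CPM against 1897, 1806 and 1746 CPM, and GLC3, the branching enzyme, rose 3.03-fold. Both synthesis (GSY1, 1.09; GLG1, 1.22) and breakdown genes were among the rises. PIG1 (-0.81) and PGM1 (-0.48) had lower values that did not reach 2-fold. In contrast to glycogen, none of the 7 trehalose genes reached 2-fold (median 0.62).

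Glucose uptake and glycolysis split within their lists. Of 15 hexose transporter and sensor genes, 2 were higher and 5 lower. The high-affinity transporter HXT6 had 971, 954 and 988 CPM in nascent cells and 2849, 2890 and 2853 CPM in line 6, and HXT7 had 422, 443 and 442 CPM against 1129, 1069 and 1028 CPM, though these neighbours are nearly identical and share reads. HXT1, the low-affinity transporter that high glucose induces, had 22.3, 21.9 and 19.6 CPM in nascent cells and 5.23, 5.63 and 4.01 CPM in line 6. HXT2 fell from 117, 123 and 117 CPM to 31.4, 30.3 and 26.3 CPM. Of 19 glycolytic genes 5 were higher and none lower (median 0.76), and the 5 were GLK1 (1.03), ENO1 (1.10), GPM2 (1.10), HXK1 (1.11) and TDH1 (1.61). Their paralogs HXK2 (-0.25), ENO2 (-0.10) and TDH2 (-0.16) were not called. ADH2, the alcohol dehydrogenase that consumes ethanol, had 2793, 2777 and 2945 CPM in nascent cells and 378, 374 and 347 CPM in line 6, a 7.75-fold fall (adjusted p = 1.15e-15), which makes it the most abundant of the named falls. Of 20 genes of peroxisomal fatty acid oxidation 3 were higher, led by POT1, the peroxisomal thiolase, with 97.3, 99.8 and 98.9 CPM against 674, 650 and 616 CPM. In the glyoxylate and gluconeogenesis list 5 of 14 were higher (median 0.61), while PCK1 (-0.48) and FBP1 (0.18) stayed within 2-fold and CIT2, peroxisomal citrate synthase, had a value of 0.70.

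Promoters of these groups are shown for the element named beside each. The stress response element AGGGG (or CCCCT), read by Msn2 and Msn4, occurred in 46.7% of 15 glycogen promoters and 22.2% of all. The box CCAAT (or ATTGG) of the Hap complex occurred in 94.1% of 17 ATP synthase promoters and 41.8% of all. Within the lists, medians with and without a match were 1.03 and 1.08 (AGGGG) and 0.94 and 1.47 (CCAAT). Over all tested genes they were 0.20 and -0.02, and 0.07 and 0.00, in that order. GDB1 (chrXVI:901805-901904, plus strand) and ATP20 (chrXVI:599654-599753, plus strand; 229, 232 and 230 CPM in nascent cells and 565, 577 and 644 CPM in line 6) are the members with the largest rise among those with a match, at least 100 counts and a place off chromosomes I and XII.
GDB1: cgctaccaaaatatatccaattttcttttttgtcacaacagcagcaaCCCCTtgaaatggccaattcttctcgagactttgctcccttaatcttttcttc
ATP20: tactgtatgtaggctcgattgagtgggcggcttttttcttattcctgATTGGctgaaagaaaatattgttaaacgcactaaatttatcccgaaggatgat

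**Figure D3:**
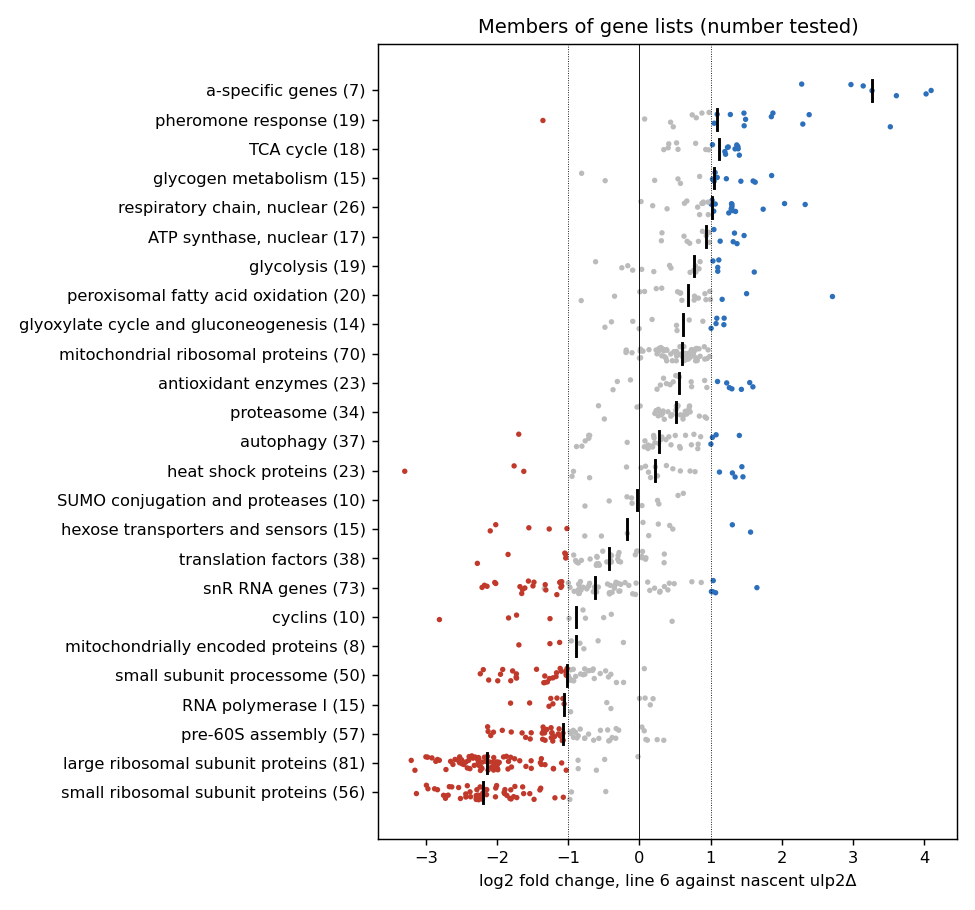
Log2 fold change of line 6 against nascent ulp2Δ for the members of 25 gene lists, 1 point per tested gene, with called rises in blue, called falls in red, other genes in grey, and a black bar at each list's median. The a-specific genes lie at the right with a median of 3.27, and both lists of ribosomal proteins lie at the left with medians of -2.14 and -2.20.

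Stress and protein quality genes gave a mixed picture. Of 23 antioxidant enzyme genes 7 were higher and none lower (median 0.56), among them GRX2, a glutaredoxin, at 1.59 and SOD2, the mitochondrial superoxide dismutase, at 1.55. Of 23 heat shock protein genes 5 were higher and 3 lower. BTN2, which gathers misfolded proteins, had 761, 837 and 822 CPM in nascent cells and 82.6, 85.1 and 78.4 CPM in line 6, and its 9.83-fold fall was the third largest off chromosomes I and XII by the naming rule. The ribosome-bound chaperones SSB1 (-1.76) and SSB2 (-1.62) fell too, and HSP26 (1.31), HSP12 (1.34) and HSP31 (1.45) rose. None of the 34 proteasome genes reached 2-fold, and their median was 0.52. At any size of change 32 of them had an adjusted p under 0.05, beside 79% of all tested genes. The sequence element of the proteasome activator Rpn4, GGTGGCAAA (or TTTGCCACC), stood in 79.4% of 34 proteasome promoters against 1.20% of all.

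No gene of SUMO conjugation or removal was called among 10 tested (6 had an adjusted p under 0.05 at any size of change, beside the 79% of all genes), and the median was -0.03. The E1 subunit genes had log2 fold changes of 0.25 (UBA2, adjusted p = 0.000686) and 0.54 (AOS1, adjusted p = 9.59e-07), and UBC9 had -0.17 (adjusted p = 0.0113). These RNA levels do not show the changes to the Uba2 protein that the study reports in the evolved lines. SMT3, the SUMO gene itself, had 186, 202 and 190 CPM in nascent cells and 235, 226 and 238 CPM in line 6, a difference of 0.27 that was larger than the spread between replicates but far from 2-fold. ULP1 had overlapping ranges of 90.8 to 96.0 and 74.3 to 93.3 CPM. SIR2, the deacetylase of silent chromatin, had 27.2, 33.6 and 36.5 CPM in nascent cells and 60.7, 63.9 and 61.0 CPM in line 6, a 1.91-fold rise (adjusted p = 1.96e-08) just under the threshold.

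Cell cycle and genome maintenance genes included falls. Of 10 cyclin and CDK genes 4 were lower and none higher (median -0.89), and off chromosomes I and XII 3 of 8 were lower. CLN1, a G1 cyclin, had 50.6, 51.4 and 51.8 CPM in nascent cells and 13.8, 13.5 and 15.9 CPM in line 6. RNR1, the large subunit of ribonucleotide reductase, had 61.6, 65.5 and 57.8 CPM against 19.1, 17.7 and 20.7 CPM, while RNR4, a small subunit gene, rose by 1.03. In bulk RNA, a change in the share of cells at 1 stage of the cell cycle cannot be told apart from a change of RNA level per cell.

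Lists of nutrient pathways held few called genes, often in both directions. Of 17 phosphate starvation genes 2 were higher and 2 lower (median 0.11). The acid phosphatase gene PHO5 had 40.7, 44.8 and 40.6 CPM in nascent cells and 115, 109 and 108 CPM in line 6, while PHO89, a phosphate transporter, had 389, 404 and 423 CPM against 138, 139 and 131 CPM. These genes moved in opposite directions. In pyrimidine synthesis and uptake, 2 of 13 genes were higher and 3 lower. URA1, dihydroorotate dehydrogenase, had 946, 939 and 979 CPM in nascent cells and 2962, 2910 and 2840 CPM in line 6, and URA7, CTP synthase, had 27.6, 31.1 and 25.6 CPM against 6.14, 6.08 and 7.47 CPM. In purine synthesis 2 of 17 genes were lower, both of the GMP branch, namely GUA1 (-1.79) and, on chromosome XII, IMD3 (-2.09). Sulfur assimilation had 2 higher and 3 lower of 20 (median -0.20), and 2 of the 3 falls lay on the shifted chromosomes (CYS3 on I, SAM1 on XII). Off I and XII it had 2 higher and 1 lower of 15, with a median of 0.05. Iron uptake had 1 higher and 3 lower of 17, nitrogen catabolite repression 2 higher and 3 lower of 20, and ergosterol synthesis 2 lower of 22 (ERG3, -1.49; ERG2, -1.38). One of the iron genes that fell (TIS11, -2.31), ERG3, the pyrimidine regulator gene PPR1 (-1.38) and the autophagy gene that fell (ATG10, -1.70) also lie on chromosome XII. Autophagy had 4 higher and 1 lower of 37, led by the pexophagy receptor gene ATG36, with 84.0, 83.1 and 86.2 CPM in nascent cells and 228, 214 and 228 CPM in line 6. None of the 9 lysine genes, 9 arginine genes, 10 histone genes, 15 genes of silencing and the rDNA or 8 genes of SUMO-targeted ligases and Cdc48 was called, and their medians were 0.44, 0.15, 0.08, -0.17 and 0.07. At an adjusted p under 0.05 and any size of change, 9, 8, 9, 11 and 7 of these lists' genes differed, in that order, beside 79% of all tested genes. Of 11 genes of daughter cell separation 1 was higher (AMN1, 1.09) and 1 was lower, while the chitinase gene CTS1 had 0.20.

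Other genes with the largest changes came from no single group. Among the 12 largest rises were DPC7 and FMP16, whose roles the annotation does not define. FMP16 had 174, 177 and 176 CPM in nascent cells and 1074, 1055 and 1185 CPM in line 6. HOP2, a meiotic gene, rose from 1.10, 1.19 and 1.45 CPM to 7.05, 5.71 and 8.07 CPM, and it ends beside AGA2, which runs toward it on the opposite strand, so without stranded counting their reads cannot be told apart. Among the 12 falls, YGR151C had 13.6, 13.2 and 11.1 CPM against 0.346, 0.221 and 0.277 CPM, with a large error (log2 -5.48, standard error 0.87). NCA3, a SUN family protein of the cell wall, fell 9.92-fold, from 41.4, 46.1 and 44.7 CPM to 4.54, 4.60 and 4.15 CPM. SLZ1, a sporulation gene, fell 8.21-fold. The other falls of this size included the ribosomal protein genes RPS1B, RPS18B, RPS16A and RPL24A, together with BTN2, ADH2, YPR145C-A and YBR191W-A.

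**Figure D4:**
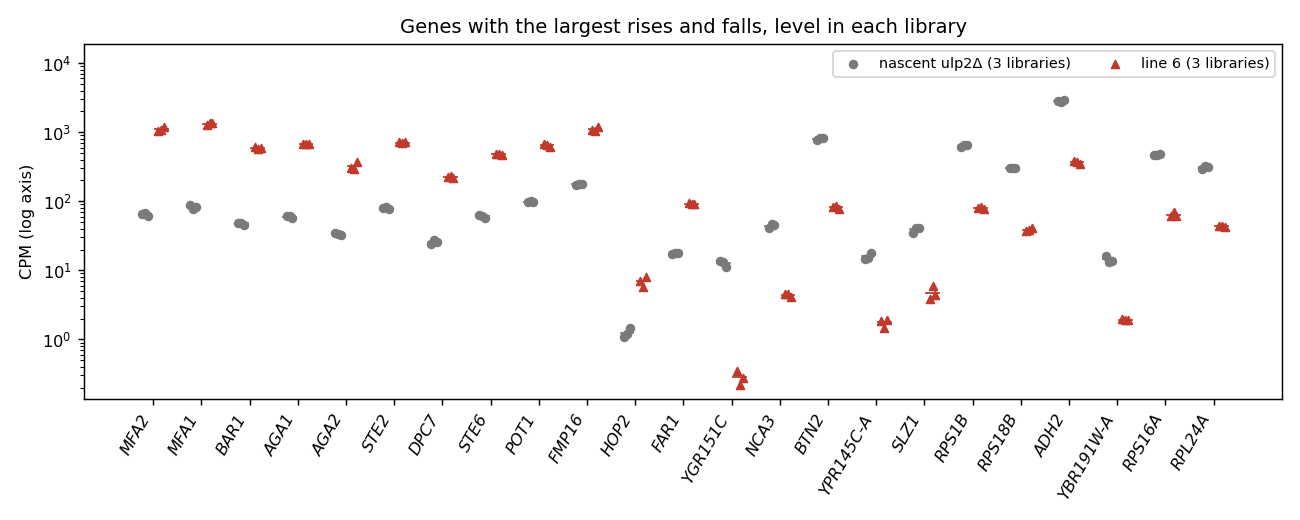
Level in each library, in CPM on a log axis, of the 12 genes with the largest rises and 11 of the 12 with the largest falls off chromosomes I and XII, with grey circles for nascent ulp2Δ and red triangles for line 6. By the rule that chose them the groups do not overlap, and the levels run from under 1 CPM (YGR151C in line 6) to almost 3000 CPM (ADH2 in nascent cells).

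Chromosomes I and XII stood apart as whole chromosomes. Their tested genes had medians 0.79 and 0.84 log2 units below that of the genes elsewhere, and 95.5% of the genes on I and 90.9% of those on XII lay below the median of the other genes. Relative to WT, the median of chromosome I was 0.76 to 0.78 higher than the rest in the nascent libraries and 0.04 to 0.12 higher in line 6, and that of chromosome XII was 0.79 to 0.81 higher in nascent cells and -0.06 to -0.05 in line 6. The groups did not overlap (exact permutation test, two-sided, p = 0.1, the smallest that 3 libraries against 3 can give). In line 9, relative to WT, the median of chromosome I was 0.02 to 0.06 higher than the rest and that of XII -0.05 to -0.04. By arm, 33 of 103 genes named YAL or YAR, 21 of 62 named YLL and 163 of 484 named YLR were lower. When the shift of each chromosome was subtracted from the fold changes, 45 genes on I and XII were higher and 82 lower by at least 2-fold. The adjusted p was still that of the change before subtraction. Genes whose change before subtraction was near 0 could therefore miss a call as higher, and the 2 counts are not on an equal footing.

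Some genes on these chromosomes changed far beyond the shift. DPA10 (YLR307C-A, chromosome XII from 746848 to 747111), whose product the annotation does not characterize, had 1209, 1182 and 1255 CPM in nascent cells and 59.1, 61.6 and 71.8 CPM in line 6, a 19.0-fold fall (log2 -4.25, standard error 0.07, adjusted p = 2.72e-16). NCW2, a cell wall protein, had 732, 698 and 643 CPM against 70.9, 68.4 and 79.4 CPM. SPO75, used in spore formation, had 9.20, 7.07 and 6.38 CPM against 0.865, 0.810 and 0.553 CPM. Each of these falls left the line 6 libraries wholly below the nascent ones, as the naming rule required. Against the direction of the shift, the rises by the naming rule were YLR227W-B, YLR256W-A and PHO11. The first 2 are retrotransposon reading frames that share reads with other Ty copies, and 1 nascent library of YLR227W-B (60.7 CPM, beside 16.8 and 16.3) came close to the lowest line 6 library (72.5 CPM). PHO11, an acid phosphatase, had 2.07, 2.48 and 2.58 CPM in nascent cells and 4.84, 5.16 and 7.20 CPM in line 6, and it is nearly identical to PHO12.

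Chromosome XIII, which was counted with the other chromosomes, was shifted as well. The median of its 476 genes lay 0.37 log2 units below that of the genes off I and XII, and 74.6% of them were below that median. Relative to WT it was 0.14 to 0.16 higher than the rest in the 3 nascent libraries and -0.23 to -0.21 in the 3 line 6 libraries (exact permutation test, two-sided, p = 0.1, again the smallest possible). In line 9 it was -0.24 to -0.22. All other nuclear chromosomes lay between -0.05 and 0.14 for line 6 against nascent cells. Of the 586 falls off I and XII, 81 were on XIII, and with XIII set apart too, which was decided after its median was seen, 310 genes were higher and 505 lower. RPS1B, RPS18B, RPS16A, ADH2 and CLN1 lie on it, and each of them fell by more than 1.8 on the log2 scale.

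**Figure D5:**
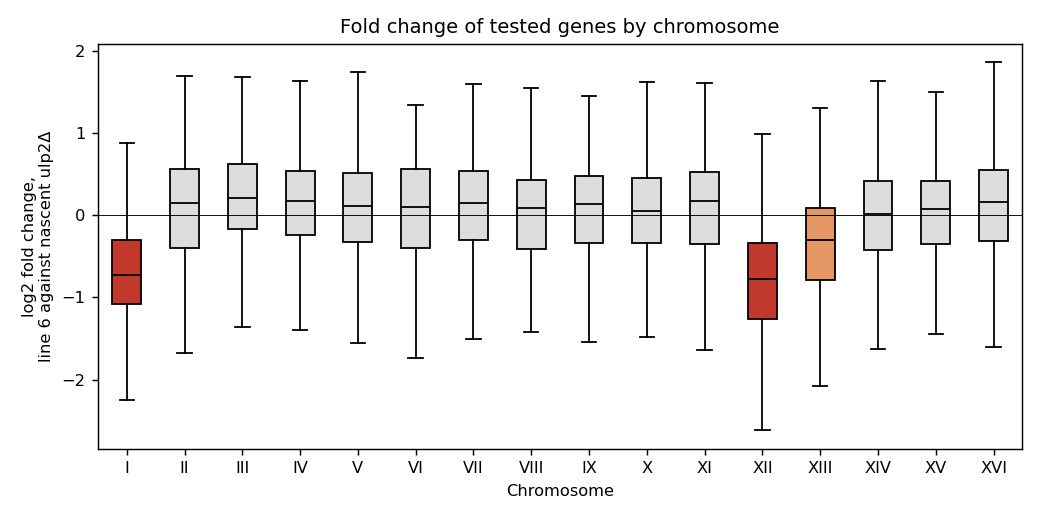
Log2 fold change of tested genes by chromosome, with the box at the quartiles, the line at the median and whiskers to the furthest gene within 1.5 times the box. Chromosomes I and XII (red) have medians of -0.72 and -0.77, XIII (orange) has -0.30, and the other 13 have medians from 0.01 to 0.21.

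The same genes were read in line 9 to see whether the changes of line 6 were shared. Of all tested genes, 2.07% were higher and 2.35% lower in line 6 than in line 9 by the same call rule. Of 29 genes named by size, 18 differed between the lines. They were named for the size of their change in line 6, which by itself favours a larger change there than in line 9, so nothing is read from the direction of these differences. The median of the small ribosomal subunit proteins against nascent cells was -1.23 in line 9 beside -2.20 in line 6, that of the a-specific genes was 1.63 beside 3.27, that of the TCA cycle was 1.34 beside 1.11 and that of glycogen metabolism was 0.43 beside 1.05. Both lines are set against the same 3 nascent libraries, so these medians are not independent, and their differences were not tested.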

How the data were processed

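RNA was sequenced as 101-base pairs, and per the labels and the study's methods the authors trimmed reads with Trim Galore 0.5.0, aligned them to sacCer3 with HISAT2 2.1.0 and assembled and quantified genes with StringTie 1.3.3b. The deposited table holds whole-number counts per gene, unnormalized. How StringTie coverage became counts, whether strand was used and how the libraries were prepared beyond column purification of RNA are not given in the sources used here, so values of overlapping, antisense and near-identical genes are uncertain. Of 7114 features, 6 unnamed assemblies (0.0826% to 0.173% of counts) were left out, and 6126 of the 7108 named features matched the RefSeq R64 annotation.

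Counts were normalized by TMM, filtered by filterByExpr and fitted over all 12 libraries with the quasi-likelihood test of edgeR 4.0.16 in R 4.3.3, and p-values were adjusted by Benjamini-Hochberg over 6372 genes. The standard error is the log2 fold change divided by the square root of F. The fit was tested on simulated counts with known changes. Alternatives were DESeq2 1.42.0, 3 other scalings, 2 filters, the 6 libraries alone, a replicate block, leaving out each library, 3 call rules, and 2 ways to treat chromosomes. Replicates of a group differed by 8.64 to 14.2 times sampling noise (chi-square per degree of freedom), so none was a repeat deposit.

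Named genes were the 12 largest rises and falls off chromosomes I and XII and the 3 on them, called by edgeR and DESeq2, with no overlap of libraries, at least 100 counts on average in the higher group and at most a 4-fold range within a group, then the 2 highest and lowest members of each of 42 lists, and genes that the study names. Members and lists were chosen with earlier results of these data known. No list was tested. Lists are described by their counts and median beside all genes. Some genes that the rule names are not reported here.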

Additional observations from a re-analysis of the deposited data

Results flagged for a closer look

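Each gene below was among 29 named by the size of their change in line 6, a choice that by itself favours a larger change there than in line 9, and changed by a different amount from nascent cells in line 6 and in line 9, by the direct test of the lines in edgeR (adjusted p under 0.05 and at least 2-fold, over all genes). The value is the log2 level in line 6 minus that in line 9. Among mating genes it was 1.21 for MFA2, 2.12 for BAR1, 2.43 for AGA1, 1.71 for AGA2, 1.52 for STE2 and 1.24 for STE6. For the thiolase gene POT1 it was 1.61. Among ribosomal protein genes it was -1.21 for RPS1B, -1.003 for RPS18B, -1.05 for RPS16A and -1.51 for RPL24A. ADH2 had -1.74 and NCA3 had -1.27. Of the uncharacterized reading frames, YPR145C-A had -1.51, YBR191W-A -1.29 and DPA10 -2.90, and the retrotransposon frame YLR227W-B had 1.08 (adjusted p = 0.0225). YGR151C had -2.42 (adjusted p = 0.0421), but 1 line 9 library carried that difference, since the line 9 libraries had 4.29, 0.134 and 0.351 CPM and the line 6 libraries 0.346, 0.221 and 0.277 CPM. DPA10 averaged 480 CPM in line 9, close to the 451 CPM of WT. With 1 line each, a difference between lines is a difference between 2 sets of 3 libraries.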

How the results depend on the processing

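All 30 genes named by size kept their call and direction under the 14 refits that tested them. The rule that named them already required a call by DESeq2, which is 1 of the refits, and no overlap of libraries. Their stability therefore says little about other genes. Among 2678 pairs of a named gene and a refit, 31 lost a call (10 genes, all near 2-fold), 15 gained one and none of the called changes turned. DESeq2 called 318 genes higher and 813 lower, and 1107 of its calls were shared. The same-numbered libraries of the groups did not deviate together (r of 0, 0.02 and 0), and with the replicate block 326 genes were higher and 585 lower off chromosomes I and XII and 9 and 218 on them. Library totals gave 175 higher off I and XII and 326 lower on them. The strict filter left 3 higher on I and XII and turned the median of the α-specific genes to 0.89, since it tests only the abundant members. A fold threshold of 1.5 gave 1055 and 1046 off I and XII, 14 and 384 on them and 2499 in all, and no fold threshold gave 2507 and 1936, 47 and 542, and 5032. With the chromosome shift subtracted and the adjusted p left as it was, 45 were higher and 82 lower on I and XII. The shift of chromosome XII was -0.81 with no filter on low counts. Leaving out each library moved the shift of XII between -0.85 and -0.82, that of I between -0.80 and -0.77, the rises off I and XII between 294 and 327 and the falls between 582 and 625. Among 630 pairs of a list median and a refit, 145 moved by over 1 SD of that median between libraries. Of the list medians, 10 changed sign under at least 1 refit, 1 of them (the α-specific genes) from a median over 0.5 in size. Depth limits genes under about 1 CPM, such as ULP2, and the smallest p of a value per library is 0.1.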

Other observations

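Genes of the cell wall, of meiosis and of eisosomes were grouped after the largest changes had been seen, so their counts only describe them. Of 33 cell wall genes 20 were lower and 1 was higher, with a median log2 fold change of -1.26. The 20 include SCW10, which was uneven among the nascent libraries, and without it 19 of 32 were lower. Off chromosomes I and XII, 14 of 26 were lower, SCW10 among them, and 1 was higher (median -1.11). GAS1, the main glucanosyltransferase that elongates the wall glucan, had 736, 722 and 716 CPM in nascent cells and 187.3 ± 12.3 CPM (SD, n = 3) in line 6. Its relative GAS3 had 132, 132 and 134 CPM against 19.8, 24.0 and 22.1 CPM, and CIS3, a wall mannoprotein, had 686, 692 and 622 CPM against 123, 133 and 131 CPM. GAS1 and GAS3 lie on chromosome XIII, which was shifted as well. The exception was TIP1 (1.28). SCW10 cannot be read as a change, because 2 nascent libraries had 442 and 427 CPM and the other had 0.35 CPM, as low as the line 6 libraries (0.405 to 0.649 CPM).

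Of 28 genes of meiosis and sporulation 13 were lower and 4 higher (median -0.76). Off chromosomes I and XII, 10 of 25 were lower and 4 higher (median -0.67). IME1, the master inducer of meiosis, had 89.7, 86.1 and 86.9 CPM in nascent cells and 23.3, 23.3 and 25.8 CPM in line 6. IME4, the RNA methyltransferase of the meiotic programme, had 5.19, 5.07 and 3.84 CPM against 0.908, 0.884 and 0.415 CPM. RME1, the haploid repressor of IME1, went the other way, with 97.1, 97.5 and 97.2 CPM in nascent cells and 242, 244 and 249 CPM in line 6. In WT the means were 38.0 CPM for IME1, 1.40 CPM for IME4 and 175 CPM for RME1, each between the nascent and the line 6 level. NDT80, the activator of middle meiotic genes, rose from 17.7, 19.1 and 19.1 CPM to 46.8, 49.8 and 48.0 CPM, so the list did not move in 1 direction.

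Eisosomes are furrows of the plasma membrane. Of 11 genes 3 were higher and 1 was lower. The core subunit genes PIL1 (636, 630 and 662 CPM in nascent cells, 1529, 1521 and 1478 CPM in line 6) and LSP1 (805, 773 and 816 CPM, then 2238, 2213 and 2176 CPM) were among the rises, as was NCE102 (1.33). PUN1, on chromosome XII, fell by 1.70.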
